A study of Mus musculus with 2 samples.

Results

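Satb1, Lef1, Tcf7, Bach2, Foxp1 and Foxo1 encode transcription factors of resting and stem-like T cells. These 6 genes, of the 27514 listed in the annotations of both libraries, were followed through T cells sorted from the skin and lung of adult mice. Cells entered when they held at least 1 UMI (unique molecular identifier, a tag that counts an RNA molecule once) of Cd3d, Cd3e and Cd3g together, which left 6400 of 6601 skin barcodes and 8349 of 8730 lung barcodes. Ccr7, the chemokine receptor that guides T cells into lymph nodes, divided the cells further: cells with at least 1 Ccr7 UMI were called Ccr7-positive and the rest Ccr7-negative.

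The skin library came from Foxp3-CreERT2GFP C57Bl/6 mice (back skin) and the lung library from Foxp3-GFP C57Bl/6 (Tachilla strain) mice. In both strains the Foxp3 locus drives GFP, and both tissues were digested with collagenase before GFP+ CD4+ CD3+ CD45+ cells, that is, regulatory T cells (Tregs), were sorted and prepared with 10x 3' v2 chemistry. Each tissue is represented by 1 library, and the number of animals behind it is not given in the sources used here. Tissue, mouse strain, library and annotation release therefore cannot be told apart, and no test between groups was possible; intervals in parentheses are 95% intervals that cover counting error only.

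The 6 factors are known for holding T cells in a resting, long-lived and recirculating state. TCF1 (the product of Tcf7) and LEF1 are related DNA-binding partners of β-catenin and Groucho/TLE corepressors that maintain naive and memory-like T cells; SATB1 organises chromatin loops in developing T cells and early Tregs; BACH2 represses effector genes at AP-1-like sites; FOXP1 maintains naive T cell quiescence and partners FOXP3; and FOXO1, active when growth factor signalling is low, drives genes of lymph node homing and recirculation such as Klf2 and S1pr1. Expression of several of these factors is known to decline as Tregs take on effector and tissue programmes.

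The genes lie on 5 mouse chromosomes (GRCm38): Satb1 (ENSMUSG00000023927) at chr17:51736187-51833290, Lef1 (ENSMUSG00000027985) at chr3:131110471-131224356, Tcf7 (ENSMUSG00000000782) at chr11:52252371-52283014, Bach2 (ENSMUSG00000040270) at chr4:32238804-32586108, Foxp1 (ENSMUSG00000030067) at chr6:98925338-99522721 and Foxo1 (ENSMUSG00000044167) at chr3:52268336-52353221. RefSeq start-site windows (GRCm38.p6, 250 bases before to 50 after the start) were available for all 6 genes, 16 windows in all. Each was searched on both strands for short motifs of T cell factors, including the families of the genes themselves. The windows shown are those that held a match (Tcf7 at chr11:52282546-52282845 and Foxp1 at chr6:99266466-99266765, both on the minus strand) and, without a match, the window nearest the annotated start for Satb1 (chr17:51833241-51833540, minus strand), which differed most between the tissues, and for Lef1 (chr3:131110073-131110372, plus strand), the partner gene of Tcf7. Capitals mark motif matches.
Tcf7: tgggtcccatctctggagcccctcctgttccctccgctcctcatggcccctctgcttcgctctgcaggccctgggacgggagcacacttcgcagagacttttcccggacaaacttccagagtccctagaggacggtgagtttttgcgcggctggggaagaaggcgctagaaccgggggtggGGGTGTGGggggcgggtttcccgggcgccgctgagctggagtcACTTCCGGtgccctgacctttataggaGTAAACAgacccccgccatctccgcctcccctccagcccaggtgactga
Foxp1: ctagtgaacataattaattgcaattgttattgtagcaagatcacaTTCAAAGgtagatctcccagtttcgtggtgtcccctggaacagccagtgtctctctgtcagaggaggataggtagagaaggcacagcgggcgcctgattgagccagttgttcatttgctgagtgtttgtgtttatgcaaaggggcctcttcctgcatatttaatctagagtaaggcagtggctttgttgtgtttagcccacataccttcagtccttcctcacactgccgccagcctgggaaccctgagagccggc
Satb1: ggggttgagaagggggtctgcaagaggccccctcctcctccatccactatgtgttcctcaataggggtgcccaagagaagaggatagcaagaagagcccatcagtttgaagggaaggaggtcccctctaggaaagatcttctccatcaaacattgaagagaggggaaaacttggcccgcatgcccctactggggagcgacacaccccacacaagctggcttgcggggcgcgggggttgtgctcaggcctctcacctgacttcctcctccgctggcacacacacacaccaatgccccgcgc
Lef1: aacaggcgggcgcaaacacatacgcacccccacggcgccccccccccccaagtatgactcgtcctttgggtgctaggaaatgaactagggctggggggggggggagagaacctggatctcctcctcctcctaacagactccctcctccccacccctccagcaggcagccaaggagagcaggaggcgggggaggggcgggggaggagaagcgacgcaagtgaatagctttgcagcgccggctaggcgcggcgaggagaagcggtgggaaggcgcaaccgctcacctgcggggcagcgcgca
The Tcf7 window held the forkhead motif GTAAACA, which begins at position 2 after the start site, the KLF motif CCACACCC read on the other strand as GGGTGTGG at position -69, and the ETS motif CCGGAAGT read on the other strand as ACTTCCGG at position -26. The Foxp1 window held the TCF/LEF motif TTCAAAG at position -205. Neither window is the one nearest the annotated start of its gene, and the nearest windows of Tcf7 and Foxp1 held no match. Of 32851 windows of the same length over the genome, 3.65% held GTAAACA, 3.56% CCACACCC, 3.89% CCGGAAGT and 8.65% the TCF/LEF motif (ATCAAAG or TTCAAAG). None of the 16 windows held TGAGTCA, the BACH and AP-1 motif (5.20% of all windows), or TGTGGTT, the RUNX motif (5.27%). The matches describe letters in these windows and were not measured as bound sites.

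The 2 libraries were of similar depth per cell but differed in other respects that stand beside every tissue comparison. T cells had a median of 2084 UMIs in skin and 2384 UMIs in lung, and the summed counts came to 15820166 UMIs in skin and 23434633 UMIs in lung. Ribosomal protein genes took 19.0% of skin UMIs and 38.2% of lung UMIs, and early response genes (induced within minutes by stress and activation, tissue digestion included) took 1.47% in skin and 0.431% in lung. A Foxp3 UMI was seen in 5.70% of skin T cells and 3.62% of lung T cells, whereas at least 1 UMI of the Treg markers Foxp3, Il2ra, Ctla4 and Ikzf2 was seen in 97.9% of T cells from skin and 81.8% of T cells from lung. Fibroblast markers summed to 1607 CPM (the UMIs of a gene per 1000000 UMIs of the group) in skin T cells and 38.7 CPM in lung T cells, with 4 of 4 markers detected in both. Lung epithelial markers summed to 63.1 CPM in skin, where 3 of 4 were at 0 (Sftpc, Sftpa1 and Scgb1a1), and to 3583 CPM in lung. Keratinocyte markers summed to 28.0 CPM in skin and 7.60 CPM in lung, where Krt5, Krt14 and Krt15 were at 0. The part of these differences in the results was not tested, apart from the settings named beside them. The sequences of 82 barcodes occurred in both matrices.

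Skin T cells held less transcript of each of the 6 factors than lung T cells. Satb1, Lef1, Tcf7, Bach2, Foxp1 and Foxo1 were each at least 2-fold lower in skin (6 of 6), whereas 5.71% of the 5687 genes with at least 20 CPM in either tissue were that much lower in skin and 19.0% that much higher. The median log2 ratio, skin over lung, was -2.67 for the 6 genes and 0.41 over all genes compared. Bach2 reached the 20 CPM floor only through its lung level. The 6 genes were chosen with earlier results of these data known, so their count only describes them.

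**Figure D1:**
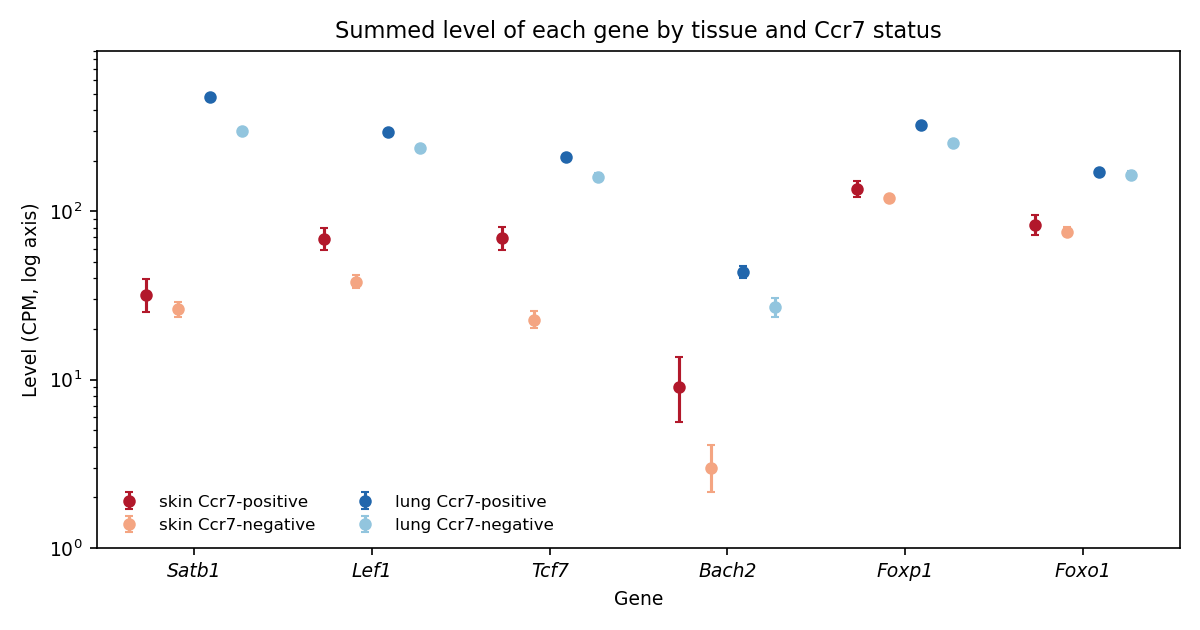
Level of each gene (CPM, log axis) summed over the T cells of 4 groups: skin Ccr7-positive, skin Ccr7-negative, lung Ccr7-positive and lung Ccr7-negative. Points are the level in 1 library and bars are 95% Poisson intervals; for each gene both skin points lie below both lung points, from 2.99 CPM for Bach2 in skin Ccr7-negative cells to 477 CPM for Satb1 in lung Ccr7-positive cells.

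Satb1, the chromatin organiser, showed the widest tissue difference of the 6. It was at 27.1 CPM (24.6 to 29.7) in skin, against 406 CPM (398 to 414) in lung, so that it was 15.0-fold lower in skin (13.6 to 16.6). A Satb1 UMI was found in 5.73% of skin cells and 58.3% of lung cells, and cells that had any held 1.17 UMIs on average in skin and 1.95 UMIs in lung. Both the share of cells and the number of molecules per positive cell were thus lower in skin.

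The TCF family pair differed by nearly the same factor. Tcf7, which encodes TCF1, was at 29.9 CPM (27.3 to 32.7) in skin, against 190 CPM (184 to 196) in lung, 6.35-fold lower in skin (5.78 to 6.997). Lef1 was at 42.9 CPM (39.7 to 46.2) in skin, against 272 CPM (266 to 279) in lung, also 6.35-fold lower in skin (5.87 to 6.89). Lef1 UMIs were found in 9.08% of skin cells and 49.98% of lung cells, and Tcf7 UMIs in 6.27% of skin cells and 37.0% of lung cells.

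Bach2, the repressor of effector genes, was the least detected of the 6 in either tissue. It had 62 UMIs over all skin T cells, or 3.92 CPM (3.005 to 5.024), against 864 UMIs and 36.9 CPM (34.5 to 39.4) in lung. The level was 9.41-fold lower in skin (7.27 to 12.4), with a UMI in 0.922% of skin cells and 9.33% of lung cells.

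The forkhead genes differed least, and stayed just past the 2-fold line. Foxp1 was at 122 CPM (117 to 128) in skin, against 296 CPM (289 to 303) in lung, 2.43-fold lower in skin (2.31 to 2.55), with a UMI in 24.1% of skin cells and 50.1% of lung cells. Foxo1 was at 76.8 CPM (72.5 to 81.2) in skin, against 168 CPM (163 to 174) in lung, 2.19-fold lower in skin (2.06 to 2.34), with a UMI in 16.4% of skin cells and 34.6% of lung cells. The intervals of both folds lie below those of the other 4 genes.

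Scaling moved all of these ratios together. With the median gene set to no change (median-of-ratios scaling), the median log2 ratio of the 6 genes was -3.08, and genes past 2-fold over the whole table split into 614 lower and 568 higher in skin, against 325 lower and 1080 higher when totals are used. The 6 genes were at least 2-fold lower in skin under each of the 16 other settings tried for this comparison, including cells with a Foxp3 UMI (median -2.49), cells with fewer than 2 UMIs of other cell types' markers (median -2.76) and cells at or below their library's median share of early response genes (median -2.50). The rule on other cell types' markers kept 3730 of 6400 skin T cells and 4074 of 8349 lung T cells.

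The T cells were also set beside barcodes rich in transcripts of other cell types. In skin, 65 barcodes with at least 2% of their UMIs in markers of other cell types, 59 of which also had a Cd3 UMI, were used for this; 70 such barcodes, 33 with a Cd3 UMI, were found in lung. After thinning every cell to 1000 UMIs, Satb1 was found in 2.73% of skin T cells and 1.54% (0.0389 to 8.28) of other-type skin barcodes, and Foxo1 in 7.47% of skin T cells and 6.15% (1.70 to 15.0) of these barcodes. For each of the 6 genes the share in skin T cells lay inside the interval of the other-type skin barcodes, so at this number of barcodes a share above that of the other-type barcodes was not detectable in skin. By summed level, Lef1 (42.9 CPM), Tcf7 (29.9 CPM) and Foxp1 (122 CPM) in skin T cells lay above the intervals of these skin barcodes, which ended at 28.9 CPM, 17.9 CPM and 85.5 CPM, and Satb1, Bach2 and Foxo1 lay inside. In lung, Satb1 was found in 33.2% of T cells and 1.52% (0.0384 to 8.16) of other-type barcodes. Lef1 (24.6% of lung T cells), Tcf7 (17.8%) and Foxo1 (15.3%) also lay above the intervals of the other-type lung barcodes, which ended at 8.16%, 12.7% and 8.16%. Foxp1 (25.9%) and Bach2 (3.76%) of lung T cells lay inside those intervals, which reached 26.1% and 5.44%; by summed level Foxp1 (296 CPM) and Bach2 (36.9 CPM) in lung T cells lay above the other-type intervals, which ended at 154 CPM and 17.2 CPM. Unthinned, the median was 6495 UMIs in the other-type skin barcodes and 5690 UMIs in the lung ones, and their unthinned Satb1 shares were 9.23% in skin and 11.4% in lung. These barcodes are not free of the factors or of T cell RNA: 84.6% of them in skin and 28.6% in lung held a Treg marker UMI, and unthinned 29.2% in skin and 44.3% in lung held a Foxp1 UMI. They therefore give no measure of free RNA alone. Among the 292 lung barcodes without a Cd3 UMI, Foxp1 was at 297 CPM (256 to 342), an interval that held the lung T cell level. For the other genes the lung T cell level lay above the interval of these barcodes. In the 67 skin barcodes without a Cd3 UMI the interval held the skin T cell level for each of the 6 genes. A Treg marker UMI was found in 82.1% of these skin barcodes and 33.6% of the lung ones.

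The next comparison set the tissues side by side within each Ccr7 status. Ccr7-positive cells made up 12.0% of skin T cells (769 cells, 11.2 to 12.8) and 56.2% of lung T cells (4688 cells, 55.1 to 57.2); after thinning to 1000 UMIs the shares were 6.39% in skin and 37.0% in lung. Their median depth was 2588 UMIs in skin and 2529 UMIs in lung, and that of Ccr7-negative cells 2029 UMIs in skin and 2222 UMIs in lung. After thinning, 53.2% of Ccr7-positive skin cells and 65.5% of Ccr7-positive lung cells still held a Ccr7 UMI. The Ccr7-negative groups can therefore include cells whose Ccr7 RNA was missed. Within the Ccr7-positive cells all 6 genes were again at least 2-fold lower in skin, against 4.59% of all genes compared, and the median log2 ratio was -1.86. Within the Ccr7-negative cells all 6 were at least 2-fold lower in skin, against 6.22% of all genes, and the median was -2.72. With median-of-ratios scaling the genes past 2-fold split into 575 lower and 522 higher among Ccr7-positive cells, against 261 and 1073 with totals, and into 616 lower and 580 higher among Ccr7-negative cells, against 356 and 1007; all 6 genes stayed at least 2-fold lower in both.

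In Ccr7-positive cells, Satb1 was at 31.9 CPM in skin and 477 CPM in lung, 15.0-fold lower in skin (12.0 to 19.0). Lef1 was at 68.6 CPM in skin and 297 CPM in lung, 4.33-fold lower in skin (3.71 to 5.08). Tcf7 was at 69.0 CPM in skin and 211 CPM in lung, 3.05-fold lower in skin (2.61 to 3.58). Bach2 was at 8.99 CPM in skin and 43.7 CPM in lung, 4.87-fold lower in skin (3.19 to 7.83). For Lef1, Tcf7 and Bach2 these folds lie below the interval of the fold in all T cells, though for Bach2 the intervals overlap. For Satb1 the fold is the same. Foxp1 was at 135 CPM in skin and 324 CPM in lung, 2.40-fold lower in skin (2.15 to 2.69). Foxo1 was at 83.3 CPM in skin and 171 CPM in lung, 2.05-fold lower in skin (1.77 to 2.37), so its interval reaches under the 2-fold line. Foxo1 missed 2-fold among Ccr7-positive cells under 4 of the 16 other settings, with log2 ratios of -0.92 to -0.98, and Foxp1 missed it in cells with a Foxp3 UMI, at -0.94.

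In Ccr7-negative cells, Satb1 was at 26.2 CPM in skin and 302 CPM in lung, 11.5-fold lower in skin (10.3 to 12.9). Lef1 was at 38.1 CPM in skin and 236 CPM in lung, 6.20-fold lower in skin (5.63 to 6.84). Tcf7 was at 22.7 CPM in skin and 160 CPM in lung, 7.03-fold lower in skin (6.21 to 7.98). Lung cells without a Ccr7 UMI held more of each of the 6 factors than Ccr7-positive skin cells, with no overlap of intervals. Bach2 was at 2.99 CPM in skin and 26.8 CPM in lung, 8.98-fold lower in skin (6.41 to 12.9). Foxp1 was at 120 CPM in skin and 255 CPM in lung, 2.13-fold lower in skin (2.003 to 2.274). Foxo1 was at 75.6 CPM in skin and 165 CPM in lung, 2.19-fold lower in skin (2.02 to 2.37).

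When the lung level was recomputed with the skin share of UMIs from Ccr7-positive cells (15.5%, against 59.3% in lung itself), the tissue folds were smaller. Skin was then 12.2-fold lower for Satb1, 7.52-fold for Bach2, 5.73-fold for Lef1, 5.61-fold for Tcf7, 2.18-fold for Foxp1 and 2.16-fold for Foxo1. Status here is the observed one, so cells whose Ccr7 RNA was missed stay among the Ccr7-negative cells. The part of Ccr7 composition in the tissue difference was not tested.

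**Figure D2:**
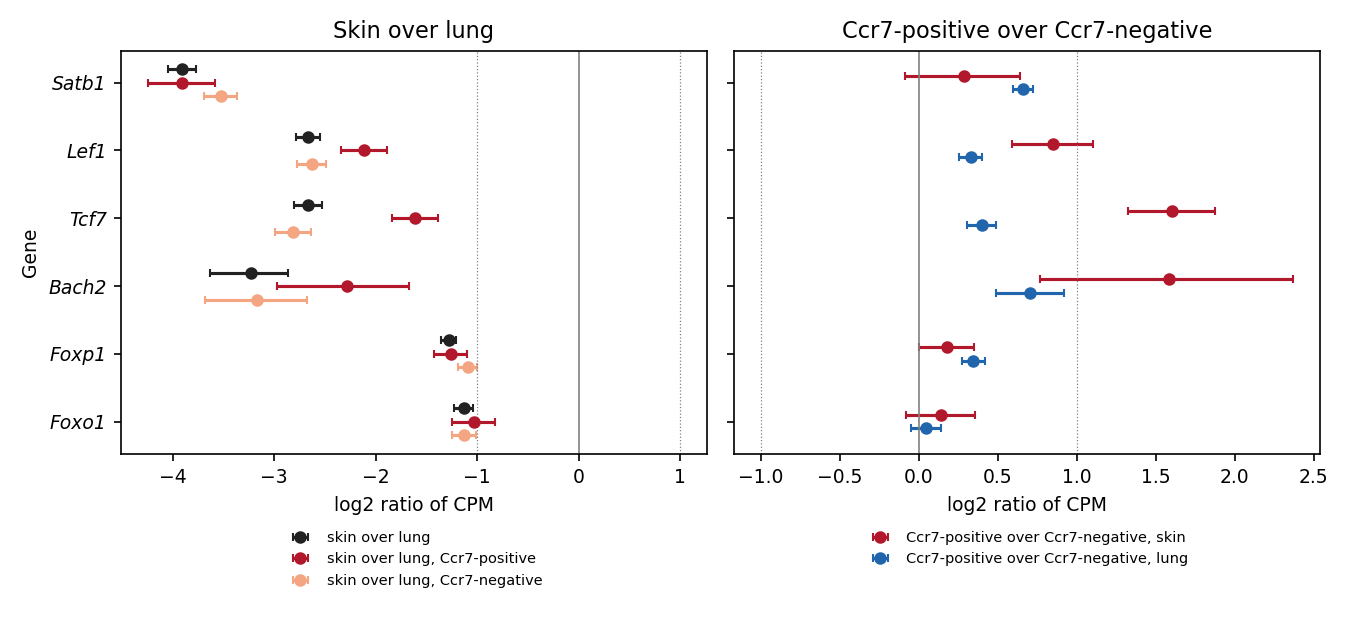
Log2 ratios of CPM for each gene, skin over lung on the left (all T cells, Ccr7-positive and Ccr7-negative) and Ccr7-positive over Ccr7-negative on the right (skin and lung), with 95% counting intervals; dotted lines mark a 2-fold difference and the solid line no difference. All skin over lung points lie left of the -1 line, and on the right Tcf7 in skin reaches 1.60.

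Among the 6 factors, Tcf7 in skin showed the widest ratio by Ccr7 status above the floor. In skin, Tcf7 was at 69.0 CPM (59.0 to 80.3) in Ccr7-positive cells and 22.7 CPM (20.2 to 25.4) in Ccr7-negative cells, a ratio of 3.04 (2.50 to 3.68). It was the only member past 2-fold among the 5 above the floor, where 0.874% of all genes compared were that much higher. Bach2 had a ratio of 3.004 (1.70 to 5.18), from 22 UMIs at 8.99 CPM and 40 UMIs at 2.99 CPM, both under the floor; its interval holds that of Tcf7. Lef1 followed, at 68.6 CPM in Ccr7-positive and 38.1 CPM in Ccr7-negative cells, with a ratio of 1.80 (1.50 to 2.15) that passed 2-fold under 6 of the other settings. The ratios of Foxp1 (1.13, 1.00 to 1.27), Satb1 (1.22, 0.940 to 1.56) and Foxo1 (1.10, 0.944 to 1.28) lay near 1, and for Satb1 and Foxo1 the interval held 1.

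In lung none of the 6 genes differed 2-fold by Ccr7 status, where 0.125% of genes were that much higher. Bach2 was at 43.7 CPM in Ccr7-positive and 26.8 CPM in Ccr7-negative cells, a ratio of 1.63 (1.41 to 1.89). Satb1 was at 477 CPM and 302 CPM in the same order, a ratio of 1.58 (1.51 to 1.65), so that Satb1 differed by Ccr7 status more in lung than in skin in its central value, with overlapping intervals. Tcf7 (1.32, 1.24 to 1.40), Foxp1 (1.27, 1.21 to 1.33) and Lef1 (1.26, 1.19 to 1.32) had smaller ratios with intervals above 1. Foxo1 was at 171 CPM in Ccr7-positive and 165 CPM in Ccr7-negative cells (1.03, 0.967 to 1.10), and its log2 ratio was below 0 under 5 of the other settings. The median log2 ratio of the 6 genes was 0.57 in skin and 0.37 in lung, against -0.02 and -0.05 over all genes compared.

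Lung epithelial markers differed by Ccr7 status in lung in summed level, but little in the share of cells that held any. They summed to 1170 CPM in Ccr7-positive and 7101 CPM in Ccr7-negative lung cells, with 4 of 4 markers detected in both groups. At least 1 UMI of them was found in 62.8% of Ccr7-positive and 61.7% of Ccr7-negative lung cells. Leaving out cells with 2% or more of their UMIs in other-type markers took these groups from 4688 to 4683 and from 3661 to 3633 cells. Leaving out the lung cells with 2 or more UMIs of other cell types' markers kept 4074 of 8349 cells. These markers include Pecam1, Epcam, Cst3 and Cd68, which many T cells of these libraries held and the 2% rule leaves out. In the cells kept, the log2 ratio of Tcf7 was 0.09 in place of 0.40. The ratios of Satb1 (0.53), Bach2 (0.60), Foxp1 (0.31) and Lef1 (0.23) stayed positive. The interval of Tcf7 then held 0 (-0.04 to 0.22).

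Taking the 4 groups together, the order of levels was the same for every gene, with lung Ccr7-positive cells highest, then lung Ccr7-negative, skin Ccr7-positive and skin Ccr7-negative cells. For Lef1, Tcf7 and Bach2 no neighbouring intervals overlapped. The pair of skin groups overlapped for Satb1, Foxp1 and Foxo1, and the pair of lung groups overlapped for Foxo1.

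A count of Ccr7 UMIs gave a finer view of the lung cells. In cells thinned to 1000 UMIs, Satb1 was at 378, 514, 637 and 690 CPM in cells with 0, 1, 2 and 3 or more Ccr7 UMIs. Bach2 was at 32.0, 43.6, 52.3 and 78.0 CPM over the same steps, Lef1 at 266, 313, 320 and 407 CPM, and Foxp1 at 291, 321, 382 and 436 CPM. Tcf7 was at 192, 203, 249 and 247 CPM. For each of these 5 genes the interval at 3 or more UMIs lay above that at 0. Foxo1 was at 170, 163, 168 and 190 CPM, with overlapping intervals throughout. In skin the steps above 0 held 273, 72 and 64 cells. Tcf7 in skin was at 24.5 CPM (20.7 to 28.8) in cells with 0 Ccr7 UMIs and 91.6 CPM (59.3 to 135) in cells with 1, and the further skin steps rested on at most 16 UMIs per gene.

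**Figure D3:**
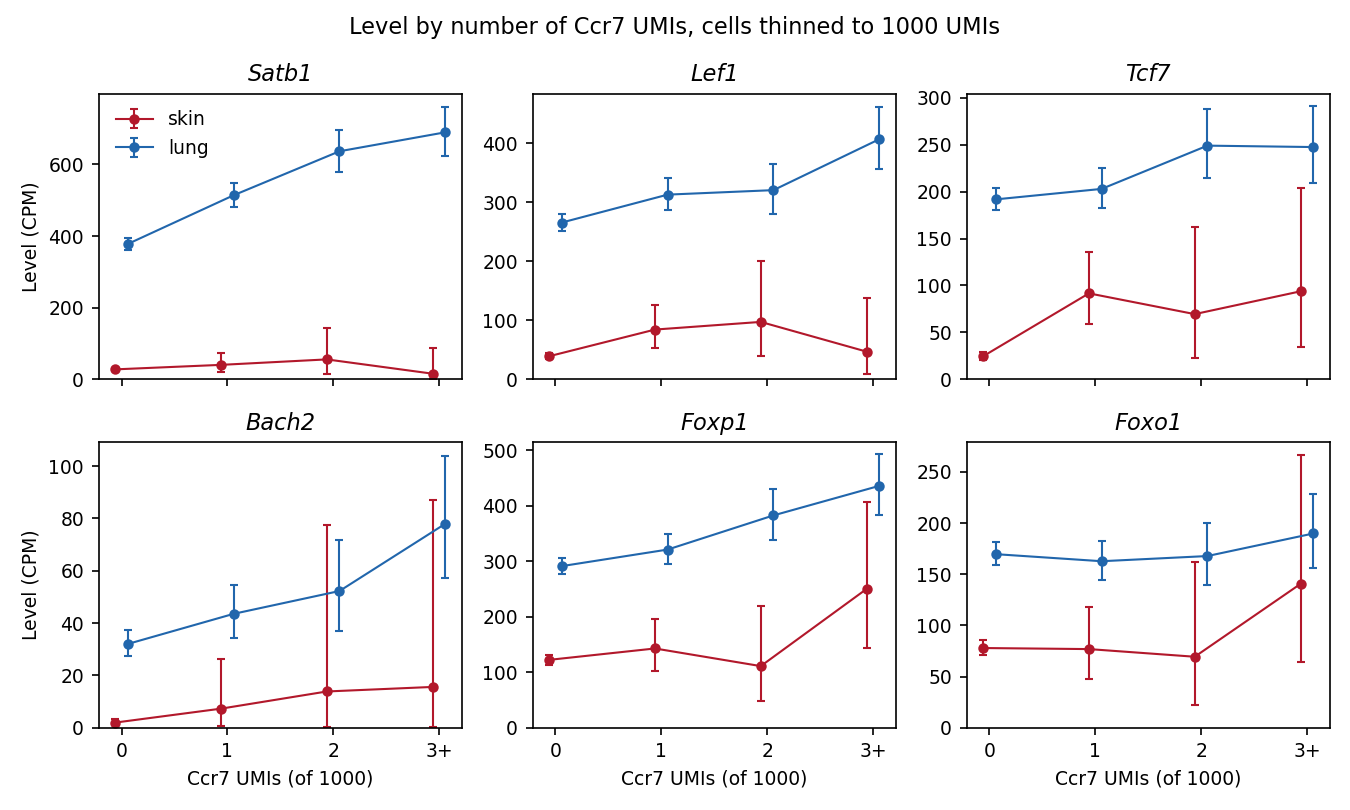
Level of each gene (CPM, linear axes from 0, scaled per panel) by the number of Ccr7 UMIs in cells thinned to 1000 UMIs, for skin and lung T cells, with 95% Poisson intervals. In lung, Satb1 goes through 378, 514, 637 and 690 CPM, and Foxo1 stays between 163 and 190 CPM.

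Counting the factors within single cells showed how rarely skin cells held several of them. After thinning to 1000 UMIs, 2.89% of skin cells (2.49 to 3.33) and 34.6% of lung cells (33.6 to 35.7) held UMIs of at least 2 of the 6 genes. By Ccr7 status the shares were 5.85% of Ccr7-positive and 2.49% of Ccr7-negative skin cells, and 39.3% of Ccr7-positive and 28.6% of Ccr7-negative lung cells. Without thinning they were 12.5% in skin and 73.8% in lung. None of the 6 genes was seen in 74.5% of thinned skin cells and 27.3% of thinned lung cells. All 6 together were seen, unthinned, in 0 of 6400 skin cells and 42 of 8349 lung cells.

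**Figure D4:**
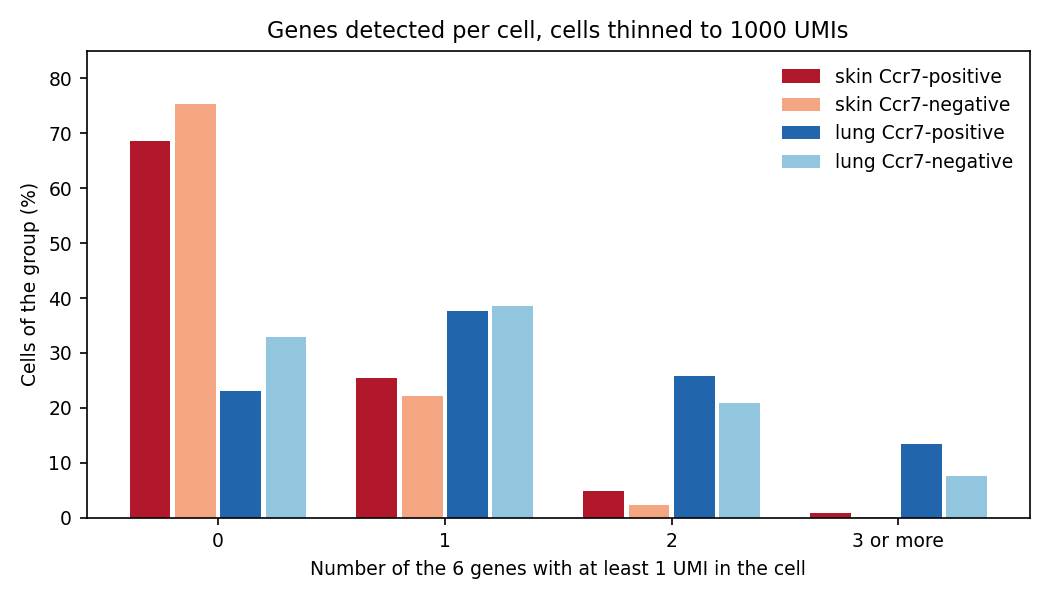
Share of cells (%) with UMIs of 0, 1, 2, or 3 or more of the 6 genes, in cells thinned to 1000 UMIs, for skin Ccr7-positive, skin Ccr7-negative, lung Ccr7-positive and lung Ccr7-negative cells. Most skin cells of either status show none, and bars for 2 and for 3 or more are taller in both lung groups.

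Within a tissue the factors co-occurred weakly. In lung, 26 of 30 ordered pairs had a higher share of the second gene in cells with the first than in cells without it, and the intervals were apart for 10 ordered pairs. Each pair of genes enters in both directions, so these counts are not of separate pairs. The ratios ran between 0.887 and 1.32, with a median of 1.11, in sparse counts of cells that share a library. Foxp1, for example, was found in 29.5% (27.8 to 31.2) of lung cells with Satb1 and 24.2% (23.0 to 25.3) of those without. In skin, 2 of 30 ordered pairs had intervals apart, and both were the same pair of TCF family genes read in either direction. Lef1 was found in 10.9% (6.70 to 16.5) of 174 cells with Tcf7 and 3.85% (3.39 to 4.36) of cells without.

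In skin, Tcf7 and Satb1 were higher in cells with transcripts of the recirculation gene S1pr1, and Tcf7 was lower in cells with transcripts of Klrg1, Cxcr6, Itgae or Areg, though not of Cd69. S1pr1 encodes the receptor for exit from tissues into lymph and blood, and 341 skin cells had an S1pr1 UMI. In those skin cells Tcf7 was at 57.9 CPM, against 28.0 CPM in skin cells without S1pr1, a ratio of 2.07 (1.55 to 2.72). Lef1 (1.78, 1.38 to 2.27) and Satb1 (1.54, 1.09 to 2.13) were also higher in the S1pr1-positive skin cells, and Bach2 (1.27, 0.398 to 3.15), Foxo1 (1.15, 0.914 to 1.42) and Foxp1 (0.893, 0.732 to 1.08) had intervals that held 1. In lung, where 3974 cells had an S1pr1 UMI, the ratios ran between 1.03 and 1.15.

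Klrg1, an inhibitory receptor of terminally differentiated effector cells, marked low levels of all 6 genes in lung. Among lung cells, the 240 with a Klrg1 UMI had Satb1 at 145 CPM and the rest 418 CPM (0.348, 0.294 to 0.409), and Tcf7 at 68.2 CPM and the rest 195 CPM (0.349, 0.272 to 0.442). Over the 6 genes the Klrg1 ratios in lung ran between 0.282 and 0.656, each with its interval below 1. All 6 genes were likewise below 1 in the 136 lung cells with Il1rl1, which encodes the receptor of interleukin 33 (0.290 to 0.652), and in the 606 with Cd44, an adhesion receptor of activated T cells (0.546 to 0.887). In skin, Klrg1 marked lower Tcf7 (0.440, 0.346 to 0.554), Bach2 (0.398, 0.187 to 0.773) and Satb1 (0.678, 0.543 to 0.842), whereas Lef1 (0.892, 0.757 to 1.05), Foxp1 (1.04, 0.944 to 1.14) and Foxo1 (0.930, 0.823 to 1.05) had intervals that held 1. Cycling cells, marked by Mki67, were low in Satb1 in lung, at 147 CPM in 130 cells against 416 CPM in the rest (0.353, 0.293 to 0.421), and in skin the Satb1 ratio was 1.22 (0.835 to 1.74). Over the 6 genes, 5 had Mki67 intervals below 1 in lung and 2 in skin, with 0 above 1 in either tissue. Cxcr6, a chemokine receptor of tissue-resident T cells, marked lower Tcf7 in skin (0.458, 0.380 to 0.551), as did Itgae, the integrin of epithelial retention (0.529, 0.437 to 0.640), and Areg, which encodes the repair factor amphiregulin (0.515, 0.427 to 0.622). Cd69, a marker of both residence and recent activation, did not divide the skin cells by Tcf7: its ratio was 0.906 (0.729 to 1.13) in 4847 cells. Cxcr3, the chemokine receptor of type 1 responses, went the other way for Tcf7 in skin, with a ratio of 2.97 (2.16 to 4.02) in 192 cells, and in lung it marked a lower level (0.717, 0.639 to 0.802).

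**Figure D5:**
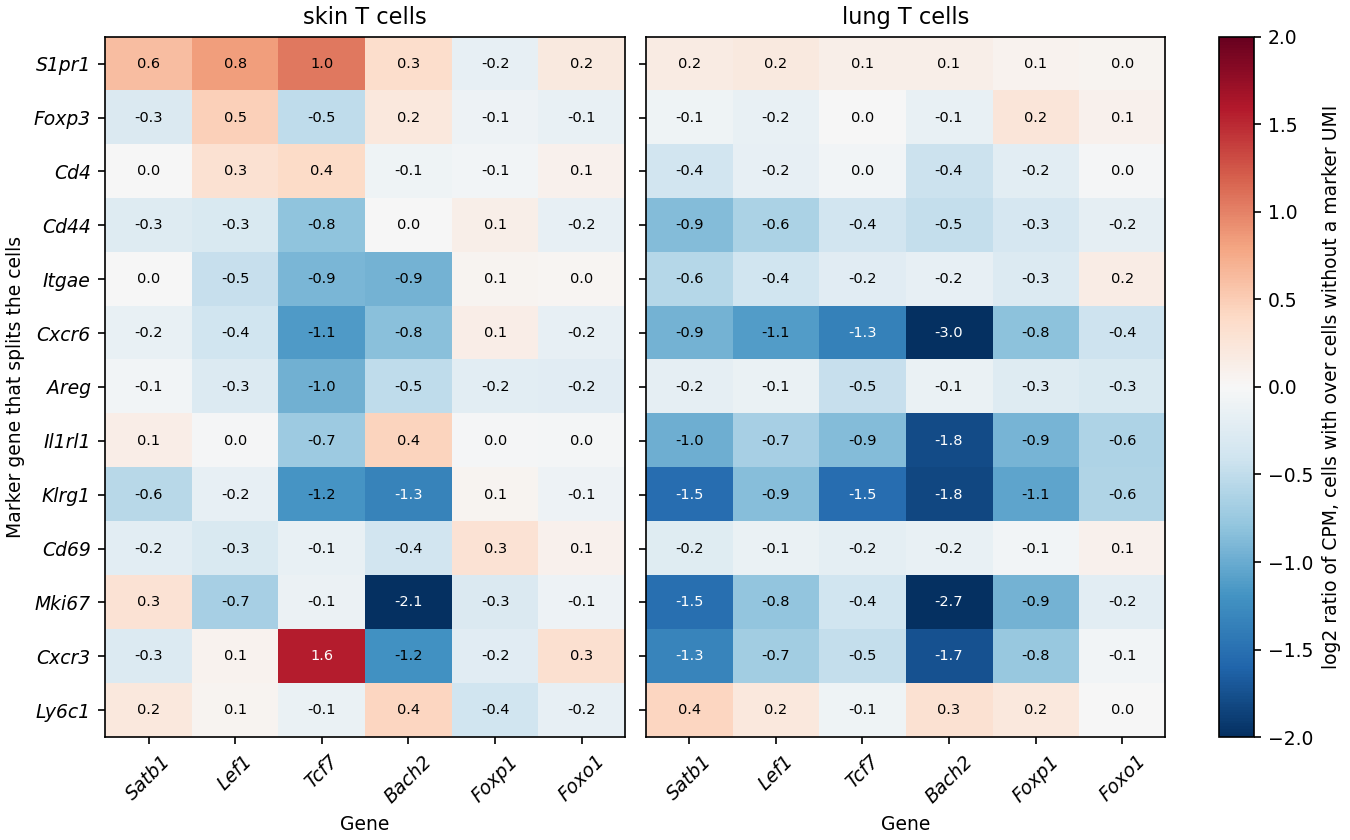
Log2 ratio of CPM for each of the 6 genes between cells with and without a UMI of each marker gene, in skin T cells (left) and lung T cells (right); numbers give the log2 ratio and colours run between -2 and 2. The S1pr1 row is above 0 for all genes but Foxp1 in skin, and the Klrg1 row is below 0 for all 6 in lung; Bach2 in the 45 lung cells with Cxcr6 rests on 1 UMI.

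Cells that shared a marker still differed by tissue. Among Klrg1-positive cells (1963 in skin, 240 in lung), Satb1 was at 20.7 CPM in skin and 145 CPM in lung, 7.02-fold lower in skin, and Tcf7 was at 16.4 CPM in skin and 68.2 CPM in lung, 4.17-fold lower in skin. Foxp1 in the same cells was at 125 CPM in skin and 145 CPM in lung, a ratio of 0.861 (0.720 to 1.03) that held 1. Among S1pr1-positive cells (341 in skin, 3974 in lung) Satb1 was at 40.2 CPM in skin and 428 CPM in lung, and Foxo1 at 87.3 CPM in skin and 171 CPM in lung. Over 13 such markers, the number of the 6 genes whose interval lay below 1, skin over lung, was 6 for 9 markers, 5 for Il1rl1, Klrg1 and Mki67 and 4 for Cxcr6, and no gene was higher in skin for any of them.

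Several genes that accompany quiescence and recirculation were also lower in skin. This list and those that follow were chosen with earlier results of these data known, so their counts only describe the lists. Of 27 listed genes, 26 passed the 20 CPM floor, of which 12 were lower in skin by 2-fold or more and 0 higher, against 5.71% lower and 19.0% higher among all genes compared; the median log2 ratio was -0.69, against 0.41 over all genes, and 8 of the 26 had a ratio above 1. Of the 12, Dapl1, Rflnb, Actn1 and Igfbp4 were under 20 CPM in skin and passed the floor only through lung. Dapl1, a marker of naive T cells, was at 0.822 CPM in skin and 23.0 CPM in lung, 28.0-fold lower in skin (16.2 to 52.9). S1pr1 was at 26.2 CPM in skin and 269 CPM in lung, 10.3-fold lower in skin (9.30 to 11.4). Il7r, the receptor of the survival cytokine interleukin 7, was on the other side, at 220 CPM in skin and 128 CPM in lung, as was Btg1, an antiproliferative gene, at 3889 CPM in skin and 2308 CPM in lung.

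Known FOXO1 targets included genes lower and genes higher in skin. Of 15 listed genes, which share S1pr1, Klf2, Il7r and Txnip with the quiescence list and all passed the floor, 7 were lower in skin by 2-fold or more and 3 higher, against 5.71% lower and 19.0% higher among all genes, so that the share of higher genes was near that of all genes. The median log2 ratio was 0.61, against 0.41 over all genes. Klf2, the factor that drives S1pr1, was at 554 CPM in skin and 2402 CPM in lung, 4.33-fold lower in skin (4.24 to 4.43), and Pik3ip1, an inhibitor of PI3 kinase, was 6.01-fold lower in skin (5.29 to 6.86). Ctla4, the inhibitory receptor of Tregs, was at 1009 CPM in skin and 295 CPM in lung, a ratio of 3.42 (3.32 to 3.51), and Irs2 (3.19) and Bcl6 (5.24) were the other genes higher in skin. Bcl6, at 22.1 CPM in skin and 4.22 CPM in lung, lay just above the floor; under median-of-ratios scaling it was not called in all T cells and was called in Ccr7-positive cells.

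The partners of TCF and BACH factors were called in few cases. Of 21 listed genes, 15 passed the floor, and 0 were 2-fold lower and 5 higher in skin (Apc, Axin2, Hdac1, Mafg and Ncor1), against 5.71% and 19.0% of all genes; at this list size a count of 0 lower is near the share of all genes. Under median-of-ratios scaling 2 genes passed, Axin2 and Mafg; with totals free of mitochondrial and ribosomal protein genes the same pair was higher and Bcl9l lower. Axin2, a feedback inhibitor and common readout of Wnt signalling through TCF factors, was at 33.2 CPM in skin and 6.57 CPM in lung, a ratio of 5.05 (4.21 to 6.08). Mafg, a small MAF partner of BACH proteins, was at 64.0 CPM in skin and 16.3 CPM in lung (3.92, 3.48 to 4.42). Of 10 listed paralogs, only Foxo3, Foxp4 and Foxp3 passed the floor. Foxo3 was at 23.1 CPM in skin and 22.1 CPM in lung (1.05, 0.913 to 1.20), and Foxp4 at 25.1 CPM in skin and 23.0 CPM in lung (1.09, 0.956 to 1.24), and neither they nor Foxp3 (24.1 CPM in skin and 13.3 CPM in lung) differed 2-fold under any of the 3 scalings tried.

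Transcription factors of effector and tissue Tregs stood on the opposite side. Their list, too, was chosen with earlier results of these data known, so its count only describes the list. Of 24 listed genes, 20 passed the floor, of which 19 were higher in skin by 2-fold or more and 0 lower, against 19.0% higher and 5.71% lower among all genes. The median log2 ratio was 2.06, against 0.41 over all genes; median-of-ratios scaling left 16 higher and put Epas1 lower. Nr4a3, induced by antigen receptor signals, was at 216 CPM in skin and 16.7 CPM in lung, a ratio of 12.9 (11.7 to 14.4). Irf4, needed for effector Tregs, was at 71.1 CPM in skin and 5.97 CPM in lung (11.9, 9.98 to 14.3), and Rora, a factor of skin Tregs, was at 503 CPM in skin and 70.3 CPM in lung (7.15, 6.78 to 7.54). Several of these genes are also induced by tissue digestion, and the higher early response share of the skin library (1.47%, against 0.431% in lung) stands beside them; its part was not tested.

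By Ccr7 status in skin, 3 of 23 quiescence genes above the floor were at least 2-fold higher and 0 lower in the Ccr7-positive cells, against 0.874% higher and 0.196% lower among all genes. Actn1, a cytoskeletal linker, was at 27.8 CPM in Ccr7-positive and 6.43 CPM in Ccr7-negative skin cells (4.32, 3.10 to 6.01), and Bcl2, the survival factor, at 132 CPM and 37.9 CPM in that order (3.47, 3.01 to 3.997). Igfbp4 was the remaining gene (2.78, 1.96 to 3.91). None of 14 FOXO1 targets and 14 TCF and BACH partners above the floor differed 2-fold in skin, as few of all genes did. None of the 20 effector factors above the floor differed 2-fold in skin; Gata3, the factor of type 2 and skin Tregs, was at 458 CPM in Ccr7-positive and 663 CPM in Ccr7-negative skin cells (0.692, 0.649 to 0.736). In lung, 0 of 26 quiescence genes differed 2-fold, with Rflnb nearest at 83.1 CPM in Ccr7-positive and 47.9 CPM in Ccr7-negative cells (1.73, 1.55 to 1.94), and 0 of 12 FOXO1 targets and 0 of 12 partners did; among all genes 0.125% were higher and 1.78% lower, so these counts of 0 are near the shares of all genes. Among the effector factors in lung, Epas1 alone was at least 2-fold lower in Ccr7-positive cells, at 11.9 CPM against 27.0 CPM in Ccr7-negative cells (0.443, 0.362 to 0.541); it passed the floor only through the Ccr7-negative cells. Summed levels of markers of other cell types were also lower in the Ccr7-positive lung cells. In Ccr7-positive and then Ccr7-negative cells they were 1170 and 7101 CPM for lung epithelium, 316 and 1024 CPM for myeloid cells, and 147 and 221 CPM for endothelium. The shares of cells with any such marker differed less. In the same order they were 62.8% and 61.7% for lung epithelium, 34.1% and 35.9% for myeloid cells, and 26.2% and 22.6% for endothelium, the last in the other direction. Of these 3 lists all markers were detected except Csf1r, which was at 0 in the Ccr7-negative cells, and their part in the Epas1 result was not tested.

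The genes most like the 6 factors were sought by setting cells with at least 2 of them against cells with none, in each tissue, after thinning (185 and 4769 cells in skin, 2864 and 2262 cells in lung), and ranking 1851 genes by the smaller of the ratios of the tissues. Ccr7 came first, with a ratio of 3.01 (2.20 to 4.04) in skin and 1.78 (1.65 to 1.91) in lung. Gramd3 followed (1.88 in skin, 1.41 in lung), then Dgkz (1.63 and 1.41), Dusp10 (1.38 and 1.71), Arid5a (1.59 and 1.34), Prkca (2.03 and 1.34), Smc4 (1.90 and 1.33), Vps37b (1.31 and 1.497), Klf2 (1.30 and 1.34) and Alkbh5 (1.67 and 1.30). The skin intervals of Dgkz, Dusp10 and Arid5a held 1. The likeness is a description of cells that share a library, and Ccr7 was the only gene of the 10 above 1.5 in both tissues.

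Annotated neighbours limit how exactly the counts belong to each gene. Gm26551 overlaps Tcf7 on the same strand with 0 shared exon bases and was at 0.822 CPM in skin and 5.42 CPM in lung, lower in skin like Tcf7 itself. Gm20696 shares 300 exon bases with Foxp1 on the same strand and was at 19.2 CPM in skin and 28.2 CPM in lung. Antisense genes overlap Lef1 (Gm43352, 1.14 CPM in skin and 7.13 CPM in lung), Tcf7 (A630014C17Rik), Bach2 (Bach2os) and Foxo1 (Gm20402), and each was under 10 CPM in both tissues. Reads of a gene and its overlapping partner may have been split or dropped in counting.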

How the data were processed

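Single-cell RNA was measured in 2 libraries of sorted GFP+ cells, 1 from skin and 1 from lung. The authors deposited raw UMI counts per gene and barcode, made with Cell Ranger on mm10 per the submitters' processing notes (3.0.2 per the file header of the lung matrix); the annotation lists 27998 genes in skin and 31053 in lung, and the 27514 shared identifiers were used. A second lung table, whose 8626 barcodes all occur in the first and which holds 92.1% of their UMIs, served only as an alternative.

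Barcodes with under 200 genes (1 in skin, 0 in lung) or over 10% mitochondrial UMIs (133 in skin, 89 in lung) were left out, then those without a Cd3 UMI (67 in skin, 292 in lung). Counts were summed per group and divided by the group total (CPM). Levels carry exact Poisson intervals, ratios of CPM exact binomial intervals and shares Clopper-Pearson intervals, at 95%; with 1 library per tissue no test was made and splits within a library compare cells of that library only. UMIs limit duplicate counting, but the intervals cover counting error only. For shares, each cell was thinned to 1000 UMIs (seed 1); 76 lung T cells and 0 skin T cells were too shallow for this. No doublet caller was run; leaving out the 6% of cells with the most UMIs was an alternative. A called gene had at least 20 CPM in either group and a 2-fold ratio, and a count of 0 was set to 3 counts.

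The 6 genes and all gene lists were chosen with earlier results of these data known, and the motifs and the 2% rule for other-type barcodes were chosen after seeing the data. Text names all 6 genes, in each list up to 4 genes with the widest ratio in either direction, and the 10 genes of highest likeness (at least 50 CPM); Hdac1 and Bcl9l were named after their values were seen. Trac, Trbc1, Trbc2, Trdc, Trgv2, Tcrg-C1, Tcrg-C2 and Igkc were not measured under the shared identifiers, and Tle5 was matched as Aes. A marker gene left out of the lists and splits is not reported here. The ratio step was tested on simulated data. Python 3.11.15, numpy 2.4.6, scipy 1.17.1, pandas 2.3.3 and matplotlib 3.10.9 were used.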

Additional observations from a re-analysis of the deposited data

How the results depend on the processing

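None of the values changed side of 1 where its interval had excluded 1, over 17 alternatives. Of the summary values, 239 stayed within counting error or 1.5-fold and 37 moved. Of the log2 ratios of single genes, 366 stayed and 114 moved. The median log2 ratio of the 6 genes, skin over lung (-2.67), was -3.08 with median-of-ratios scaling, -3.06 with totals free of mitochondrial and ribosomal protein genes, -2.82 without the 6% of cells with the most UMIs, -2.49 in cells with a Foxp3 UMI, -2.81 with status and levels thinned, -2.82 as a mean of CPM per cell, -2.50 at or below the median early response share and -2.88 in cells of 1500 to 3000 UMIs. Among Ccr7-positive cells (-1.86) it was -2.29 and -2.22 under the first and second of these scalings, and among Ccr7-negative cells (-2.72) -3.08 under either, -2.91 without cells holding 2 or more UMIs of other cell types, -1.99 in cells with a Foxp3 UMI, -2.90 as a mean per cell and -2.97 in cells of 1500 to 3000 UMIs. The number of genes at least 2-fold lower in skin was 6 throughout for all T cells and 5 or 6 within either Ccr7 status. By Ccr7 status in lung (0.37) the median was 0.46 without mitochondrial and ribosomal protein genes in the totals and 0.27 without cells of other-type UMIs, and 1 gene, Bach2, passed 2-fold in cells with a Foxp3 UMI. In skin the median (0.57) was 1.07 when positive meant at least 2 Ccr7 UMIs. The count of genes past 2-fold in skin was 2 in place of 1 with a floor of 5 CPM or none, without the deepest 6% of cells, without cells of other-type UMIs, with at least 2 Ccr7 UMIs, with thinned levels, as a mean per cell and in cells of 1500 to 3000 UMIs; the added gene was Bach2 where the floor was lowered and Lef1 otherwise. The difference in the share of cells with at least 2 of the genes, skin minus lung (-31.7 percentage points), was -34.2 without cells of other-type UMIs, -29.4 in cells with a Foxp3 UMI, -34.1 in cells of 1500 to 3000 UMIs and -13.0 when thinned to 500 UMIs, where fewer genes are seen per cell. Ccr7-positive minus Ccr7-negative, this share differed by 3.37 in skin and 10.7 in lung; in skin the value was 5.62 without cells of other-type UMIs, 7.06 in cells with a Foxp3 UMI and 0.998 at 500 UMIs, and in lung 12.9 with at least 2 Ccr7 UMIs and 3.71 at 500 UMIs. Apart from scaling, floor and thinning, whose construction shifts the values, the cause was not tested. Leaving out cells with 2% or more of their UMIs in other-type markers, an alternative chosen after seeing the data, moved none of these summary values. Skin Bach2 rested on 62 UMIs, which limits its ratios by Ccr7 status. No paired analysis was possible because each tissue has 1 library.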
